A study of Mus musculus with 24 samples.

Results

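The 10 genes described here are early response genes that code mainly for regulators of transcription, mRNA and stress signalling: Npas4, Klf2, Klf4, Ier2, Ier5, Btg2, Gadd45b, Gadd45g and Csrnp1, together with the small GTPase gene Arl4d. They were taken as a list of names, matched to Ensembl identifiers, and are 10 of 47069 gene identifiers counted in mouse hippocampus. All 10 had enough counts to be tested. The values below come from 18 RNA-seq libraries that ask how these genes respond to 1 h of novelty in mice labelled as mutant or wild type for the histone demethylase gene Kdm5c, and how they differ between genotypes at rest.

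Early response genes are transcribed within minutes of synaptic activity without new protein synthesis, because the factors that switch them on, such as CREB and SRF, are already present and are activated by calcium and kinase signals. Npas4, a transcription factor of the basic helix-loop-helix PAS family that pairs with ARNT proteins, is known for its selective response to calcium influx in neurons and for shaping inhibitory synapses. Klf2 and Klf4 are zinc finger factors of the Krüppel-like family, of which Klf2 is best known from endothelium and Klf4 from reprogramming to pluripotency. Btg2 recruits deadenylases to mRNA, Gadd45b and Gadd45g are stress sensors that act on kinases and have been linked to DNA demethylation, Csrnp1 is a nuclear protein that activates transcription, and Arl4d recruits exchange factors to the plasma membrane.

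The groups were as follows, each with 3 libraries and each library made from pooled hippocampal tissue of 3 male mice aged 2-4 months. Mice labelled as constitutive Kdm5c knockouts (KO, Kdm5c-/y) were taken after novelty, and wild-type mice (WT) were taken in the same way. KO and WT mice were also taken untreated. These 12 libraries share a mixed C57/129 background, single reads of 50 bases and the same flow cell. Novelty meant that a mouse spent 1 h alone in a white box with tubing and toys. Inducible forebrain knockout mice (ifKO, Kdm5c f/f with CaMKIIα-creERT2, a tamoxifen-dependent Cre expressed in excitatory forebrain neurons) and their control mice were untreated, on a C57BL/6J background, and sequenced with paired reads of 75 bases on another flow cell. In the ifKO the glia, vessels and other cells that do not express the Cre keep the gene. The counts of Kdm5c did not separate untreated KO from untreated WT: they ran from 75.4 to 76.3 CPM (counts per M, defined below) in untreated KO and from 74.2 to 76.4 CPM in untreated WT, and the log2 difference was 0.01 ± 0.06 (SE, adjusted p = 0.9826) and 0.04 ± 0.05 for ifKO over control (adjusted p = 0.9274). After novelty they ran from 77.8 to 86.5 CPM in KO and were 90.2 CPM or more in WT, where Kdm5c rose with novelty by 0.34 ± 0.06 (adjusted p = 0.03875), and KO over WT stood at -0.24 ± 0.06 (adjusted p = 0.1075). These counts run over the whole gene and the labels do not name a deleted part, so KO, WT, ifKO and control below mean libraries labelled as such, and each direction between genotypes rests on those labels. The labels do not say whether control mice carried the Cre or were given tamoxifen. The p-values below measure the spread between pools of mice.

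The sequences upstream of the genes are shown because 5 of these genes rose after novelty when the KO and WT responses were averaged, and because CREB binds a known DNA element, TGACGTCA. Each line gives the 250 bases before the RefSeq transcript start (GRCm38.p6), 5′ to 3′ on the gene's strand. Capitals mark TGACGTCA, its core TGACG on either strand, and the letters TATAAA, a form of the TATA element. The 5 genes that rose are followed by Btg2, whose window holds the full element. The windows are chr19:4989972-4990221 (minus strand) for Npas4, chr4:55532476-55532725 (minus) for Klf4, chr10:80929841-80930090 (plus) for Gadd45b, chr13:51846425-51846674 (plus) for Gadd45g, chr11:101665291-101665540 (plus) for Arl4d and chr1:134079156-134079405 (minus) for Btg2. The gene spans given below come from another annotation, GENCODE M21. By those spans the Npas4 window lies inside the gene, and the Gadd45b window runs past the gene start.
Npas4: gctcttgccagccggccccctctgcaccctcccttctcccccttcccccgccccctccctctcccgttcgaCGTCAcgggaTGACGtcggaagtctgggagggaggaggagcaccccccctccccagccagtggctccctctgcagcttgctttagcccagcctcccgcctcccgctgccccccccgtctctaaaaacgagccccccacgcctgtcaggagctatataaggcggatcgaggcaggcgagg
Klf4: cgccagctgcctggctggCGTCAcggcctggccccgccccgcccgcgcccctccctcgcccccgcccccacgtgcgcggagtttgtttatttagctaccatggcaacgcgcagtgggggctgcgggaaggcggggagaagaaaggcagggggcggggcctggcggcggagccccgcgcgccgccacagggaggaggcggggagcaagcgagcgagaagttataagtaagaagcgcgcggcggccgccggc
Gadd45b: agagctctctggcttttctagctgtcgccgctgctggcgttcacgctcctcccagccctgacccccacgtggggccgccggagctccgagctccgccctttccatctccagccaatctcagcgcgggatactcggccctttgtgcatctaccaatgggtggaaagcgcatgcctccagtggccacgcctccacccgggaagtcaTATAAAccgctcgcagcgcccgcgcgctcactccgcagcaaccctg
Gadd45g: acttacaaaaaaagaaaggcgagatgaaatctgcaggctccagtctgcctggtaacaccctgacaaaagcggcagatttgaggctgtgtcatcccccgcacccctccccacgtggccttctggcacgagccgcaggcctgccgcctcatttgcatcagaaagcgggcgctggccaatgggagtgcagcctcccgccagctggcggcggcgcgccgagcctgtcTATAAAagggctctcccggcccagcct
Arl4d: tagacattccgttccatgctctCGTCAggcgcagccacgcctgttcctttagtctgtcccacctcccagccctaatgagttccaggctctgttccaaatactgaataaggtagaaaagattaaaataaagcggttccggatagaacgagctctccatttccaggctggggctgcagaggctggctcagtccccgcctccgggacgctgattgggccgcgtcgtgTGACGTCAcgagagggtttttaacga
Btg2: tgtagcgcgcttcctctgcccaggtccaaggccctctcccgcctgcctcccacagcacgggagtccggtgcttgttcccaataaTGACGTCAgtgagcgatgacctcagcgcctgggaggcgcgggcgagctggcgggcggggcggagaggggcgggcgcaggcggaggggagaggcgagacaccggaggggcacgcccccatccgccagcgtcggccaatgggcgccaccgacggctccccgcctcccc

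Windows were available for 9 of the 10 genes, all but Ier2. The full element TGACGTCA was found in Arl4d, 26 to 19 bases before the start, and in Btg2, 166 to 159 bases before it, against 1.55% of all 32851 windows of that length in the table. The table holds 12 windows for these 9 genes, 4 of them for Csrnp1, so shares are also given over genes with any window that matches. The full element was in 1.77% of 27025 genes. The core TGACG, searched on both strands, was found in 6 of the 9 genes (Npas4, Klf2, Klf4, Btg2, Csrnp1 and Arl4d), against 19.8% of genes and 17.8% of windows, and each full element holds the core 2 times because it is a palindrome. TATAAA stood 46 to 41 bases before the start of Gadd45b and 27 to 22 bases before that of Gadd45g, and 14.3% of genes held it. Other forms of the TATA element were not searched, such as the letters tatataag in the windows of Npas4 and Ier5. The search therefore does not show which genes lack a TATA element. The AP-1 element TGANTCA was found in 1 of the 4 windows of Csrnp1 and in none of the other 8 genes (7.82% of genes), the CArG box bound by SRF in 0 (1.62% of genes), and the core TCGTG bound by PAS factors in Ier5, Gadd45g, Csrnp1 and Arl4d (15.2% of genes). These matches describe the letters in each window and were not tested as binding sites.

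Libraries held 16.0 to 45.6 M counts assigned to genes, and the shallowest were untreated WT library 1 and KO novelty library 2 (16.7 M). Levels are given as CPM, the counts per M counts in the tested genes after TMM scaling. Libraries also differed in a trend of counts with GC content. The slope of log2 CPM per 10 percentage points of GC was 0.051, -0.128 and 0.124 in KO novelty libraries 1 to 3 and 0.229, -0.133 and -0.051 in WT novelty libraries 1 to 3, and ran from -0.11 in untreated KO library 2 to 0.081 in untreated WT library 2 among the untreated. Of the 10 genes, 9 have a GC content above the median of tested coding genes. Values without both WT novelty library 1 and KO novelty library 2, a choice taken from earlier work on these data, are given where they differ in call. The slopes do not single out this pair, since WT novelty library 2 had a slope close to that of KO novelty library 2. Without the pair, 351 of 16556 tested genes were called higher in WT and 345 on average, against 57 and 175 of 16392 with it. Fits without each other library are given by gene.

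**Figure D1:**
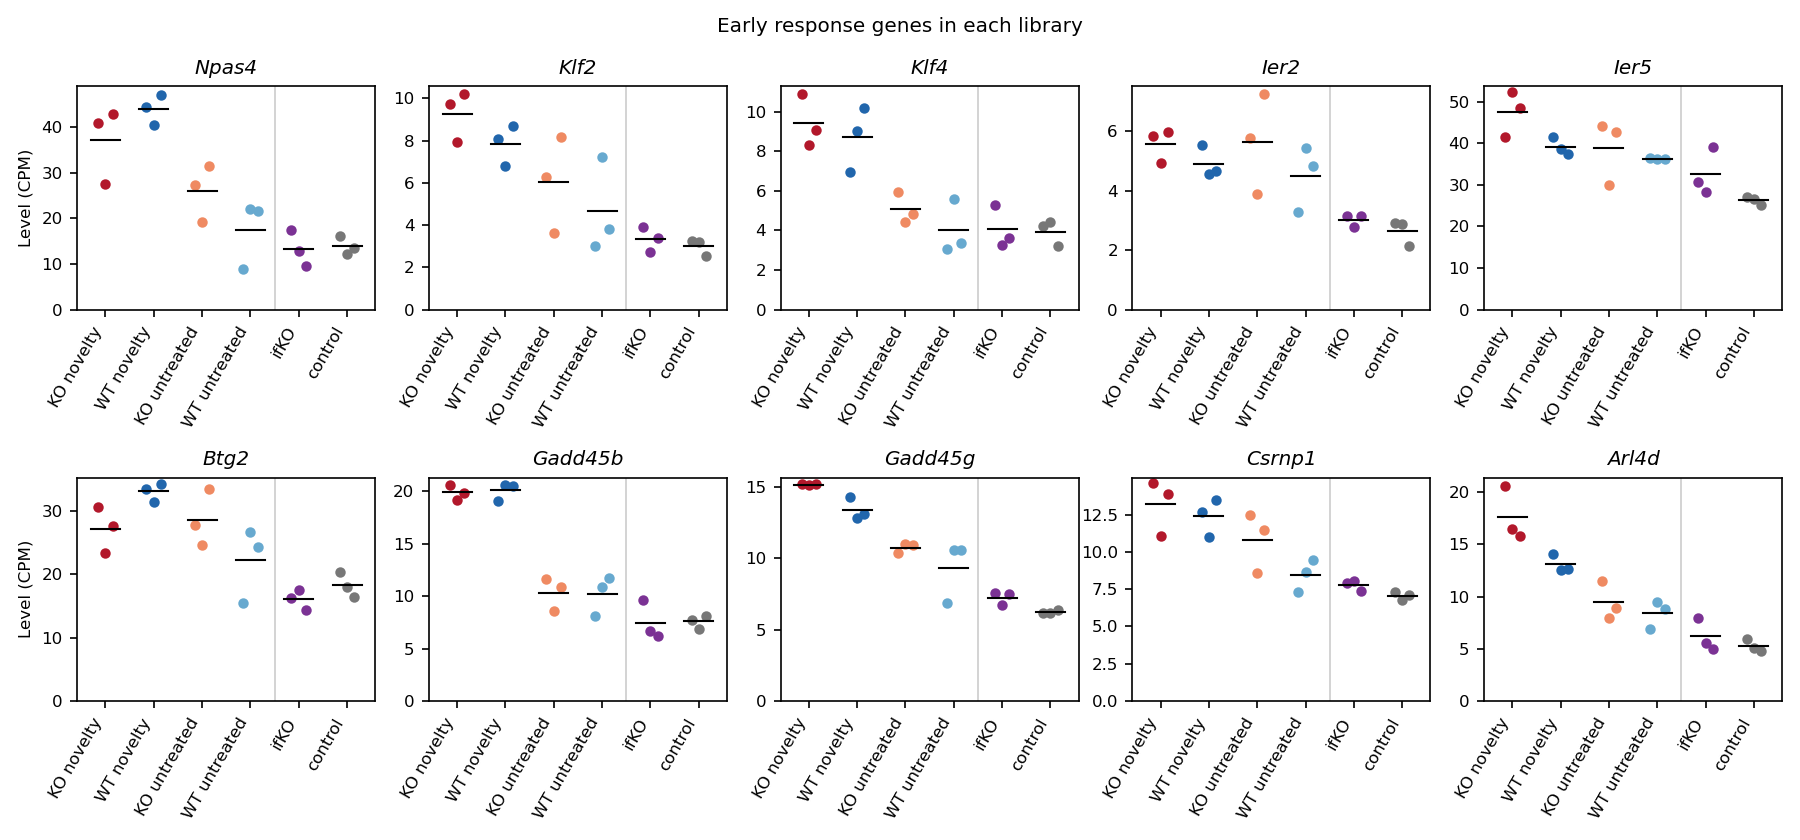
Level of each of the 10 genes in every library, in CPM on a linear axis from 0, by group, with novelty left of untreated and KO left of WT, and ifKO left of control; points are libraries and horizontal lines the group means (n = 3). Gadd45b sits between 19.1 and 20.6 CPM in all 6 novelty libraries and between 8.08 and 11.7 CPM in the 6 untreated KO and WT libraries.

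At rest the 10 genes covered a range of levels once length was allowed for. In untreated WT hippocampus Ier5 was the most abundant, at 11.1 ± 0.0578 CPM per kb of exon (SD, n = 3), and Klf4 the least, at 1.31 ± 0.446 CPM per kb. In between, Btg2 averaged 8.09 CPM per kb, Gadd45g 7.96, Gadd45b 6.42, Arl4d 6.07, Npas4 4.23, Ier2 2.96, Klf2 2.54 and Csrnp1 2.44 CPM per kb. The lowest library for Ier5 lay above the highest for Btg2, and the highest for Klf4 lay below the lowest for Csrnp1, whereas all other neighbours in this order overlapped in their libraries. After novelty in KO the top of the order held Ier5 at 14.5 ± 1.66, Gadd45g at 12.9 ± 0.0467, Arl4d at 12.8 ± 1.89 and Gadd45b at 12.5 ± 0.45 CPM per kb. The ranges of these 4 genes overlapped between neighbours.

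Novelty raised part of the list in both genotypes. In KO mice 2 of the 10 genes rose, Gadd45b and Arl4d, where 0.11% of the 16392 tested genes were called higher, and in WT mice 2 rose, Gadd45b and Klf4, where 0.348% were called higher (edgeR quasi-likelihood test, Benjamini-Hochberg adjusted p under 0.05). Averaged over the KO and WT responses, 5 rose (Gadd45b, Arl4d, Klf4, Gadd45g and Npas4), against 1.07% of tested genes. None of the 10 fell, where 0.0% of tested genes were called lower in KO, 0.0366% in WT and 0.287% on average. The median log2 change of the 10 was 0.50 in KO, 0.60 in WT and 0.58 on average, where the median over all tested genes was 0.005, -0.002 and -0.001. In these bulk samples fewer cells that express a gene and less RNA per cell cannot be told apart, and the same holds for more.

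**Figure D2:**
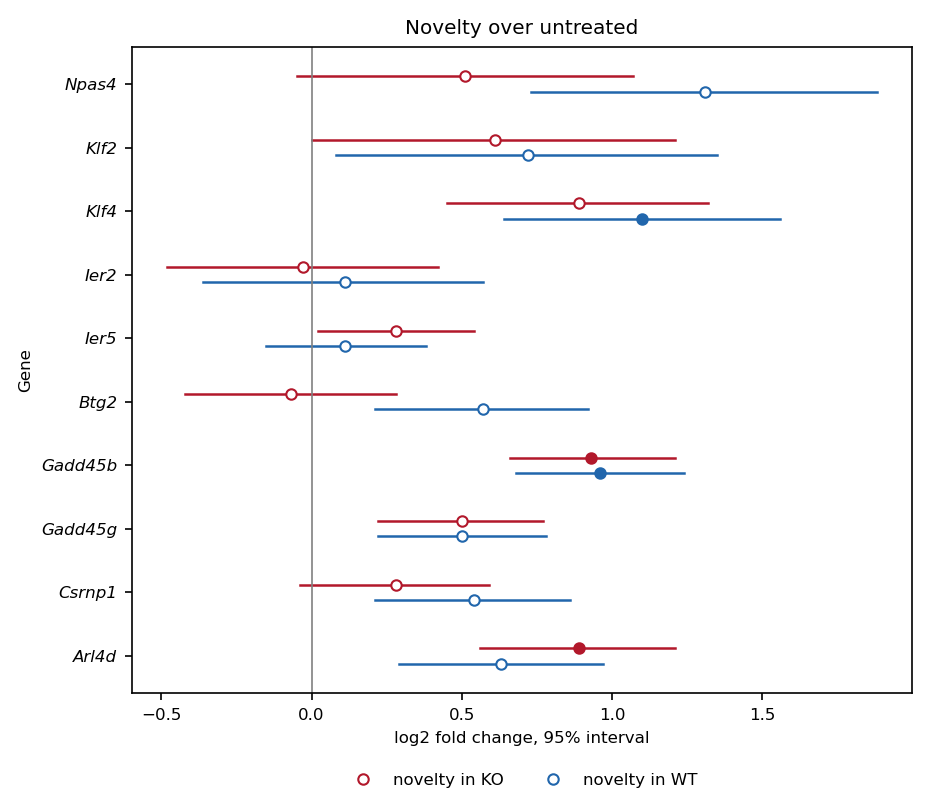
Log2 fold change of novelty over untreated for each gene, in KO (red, upper) and in WT (blue, lower), with 95% confidence intervals from the edgeR fit; filled points passed an adjusted p of 0.05. Gadd45b has nearly equal estimates, 0.93 in KO and 0.96 in WT, whereas the estimates for Npas4 (0.51 and 1.31) and Btg2 (-0.07 and 0.57) lie further apart, with overlapping intervals.

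Npas4 (ENSMUSG00000045903, chromosome 19, 4984355 to 4990316 in GRCm38, as for the genes below) had 41.0, 27.6 and 42.8 CPM after novelty in KO, against 27.4, 19.2 and 31.5 CPM in untreated KO. In WT it had 44.5, 40.4 and 47.1 CPM after novelty, against 8.88, 22.1 and 21.5 CPM untreated. All WT novelty libraries lay above all untreated WT libraries, whereas in KO the lowest novelty library lay between the untreated ones. The average response was 1.88-fold (log2 0.91 ± 0.19 SE, adjusted p = 0.03044). Taken separately, the change in KO was 1.42-fold (95% interval 0.968 to 2.1, adjusted p = 0.7665) and the change in WT 2.47-fold (1.66 to 3.68, adjusted p = 0.05695). The average call is not firm to the choice of libraries: it held in 6 of the 12 fits that each left out 1 library, and was lost without KO novelty library 1 or 3, untreated KO library 1 or 2, WT novelty library 3 or untreated WT library 3. Over all tested genes, 175 were called higher on average, and 77 to 206 were in these 12 fits. Without WT novelty library 1 and KO novelty library 2 together, the WT change was called, with a log2 change of 1.28 (adjusted p = 0.0178).

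Among the Krüppel-like factors of the list, Klf4 (ENSMUSG00000003032, chromosome 4, 55527143 to 55532466) rose. It had 10.9, 8.3 and 9.08 CPM after novelty in KO against 5.92, 4.44 and 4.84 CPM untreated, and 6.95, 9.01 and 10.2 CPM after novelty in WT against 3.08, 5.56 and 3.36 CPM untreated. In both genotypes the novelty and untreated libraries did not overlap. The average response was 1.99-fold (log2 0.99 ± 0.15 SE, adjusted p = 0.00421), and it was called in all 12 fits without 1 library. In WT the change was 2.15-fold (adjusted p = 0.04691), and in KO it was 1.85-fold with an adjusted p of 0.187. The WT call was lost without untreated WT library 1 or 3 or WT novelty library 2 or 3, with adjusted p-values up to 0.232. Over all tested genes, 57 were called higher in WT, and 4 to 57 were in these fits.

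Klf2 had 9.72, 7.93 and 10.2 CPM after novelty in KO against 6.29, 3.61 and 8.19 CPM untreated, and 8.07, 6.78 and 8.68 CPM in WT against 3.02, 7.21 and 3.82 CPM untreated. In each genotype 1 untreated library lay above the lowest novelty library. Its average response, 1.58-fold (95% interval 1.17 to 2.14), did not pass the adjusted threshold (adjusted p = 0.1449). It passed in 1 of the 12 fits without 1 library, the one without untreated WT library 2 (adjusted p = 0.0456), and also with DESeq2 (0.035), with GC and length offsets (0.0235) and without a filter (0.00118).

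Both Gadd45 genes rose on average. Gadd45b (ENSMUSG00000015312, chromosome 10, 80930073 to 80932204) had 20.6, 19.2 and 19.8 CPM after novelty in KO against 11.6, 8.55 and 10.9 CPM untreated, and 19.1, 20.6 and 20.5 CPM in WT against 8.08, 10.9 and 11.7 CPM untreated. The 6 novelty libraries lay close together and all above the 6 untreated ones. Its log2 change was 0.93 ± 0.13 SE in KO (adjusted p = 0.01446) and 0.96 ± 0.13 SE in WT (adjusted p = 0.00973), and the average was 1.93-fold (adjusted p = 0.0002555). The average call held in all 12 fits without 1 library, with adjusted p-values up to 0.00188. Within KO the call held in 1 of the 6 such fits, the one without KO novelty library 2, and within WT it was lost without untreated WT library 1 or WT novelty library 3, while the log2 change stayed between 0.82 and 1.07 in all of these 12 values. Among all tested genes, 1 to 10 were called higher in the KO fits, against 18 over all libraries. In the WT fits it was 4 to 85, against 57.

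Gadd45g (ENSMUSG00000021453, chromosome 13, 51846678 to 51848468) had 15.2, 15.1 and 15.2 CPM after novelty in KO against 10.4, 11.0 and 10.9 CPM untreated. In WT it had 14.3, 12.8 and 13.1 CPM after novelty against 6.84, 10.6 and 10.6 CPM untreated. The groups did not overlap in either genotype. Its average response was smaller than that of Gadd45b in size, 1.41-fold (log2 0.50 ± 0.09 SE, adjusted p = 0.0145), and a difference between the 2 genes was not tested. The changes of 1.41-fold in KO and 1.42-fold in WT did not pass alone (adjusted p = 0.3031 and 0.1336). The average call was lost without untreated KO library 1 (adjusted p = 0.0551).

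Arl4d (ENSMUSG00000034936, chromosome 11, 101665541 to 101667832), which codes for a small GTPase, had 20.6, 16.5 and 15.8 CPM after novelty in KO against 11.5, 7.91 and 8.9 CPM untreated. In WT it had 14.1, 12.5 and 12.6 CPM after novelty against 6.91, 9.43 and 8.82 CPM untreated. In both genotypes all novelty libraries lay above all untreated ones. It rose 1.85-fold in KO (95% interval 1.48 to 2.32, adjusted p = 0.04616), and the WT change of 1.55-fold (1.22 to 1.95) had an adjusted p of 0.1187. The average response was 1.69-fold (log2 0.76 ± 0.11 SE, adjusted p = 0.003431) and was called in all 12 fits without 1 library, whereas the call within KO was lost in each of its 6 (adjusted p 0.0514 to 0.347, without KO novelty library 1, 2 or 3 or untreated KO library 1, 2 or 3). In these 6 fits, 1 to 10 of all tested genes were called higher in KO, against 18 over all libraries, and the log2 change of Arl4d ran from 0.743 to 1.057.

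None of the other 4 genes, Csrnp1, Btg2, Ier5 and Ier2, passed the threshold in KO, in WT or on average. Csrnp1 had 14.6, 11.1 and 13.9 CPM after novelty in KO against 12.5, 8.6 and 11.5 CPM untreated, and 12.7, 11.0 and 13.5 CPM in WT against 7.34, 8.63 and 9.45 CPM untreated. The WT libraries separated by treatment and the KO libraries overlapped, and the average change was 1.33-fold (95% interval 1.13 to 1.55, adjusted p = 0.08122). Without WT novelty library 1 and KO novelty library 2 together it passed (adjusted p = 0.0419), as it did without the KO library alone (adjusted p = 0.0491). An annotated transcript of Cx3cr1 spans Csrnp1 on the same strand but shares 0 exon bases with it.

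Btg2 had 30.7, 23.4 and 27.6 CPM after novelty in KO against 27.8, 24.6 and 33.5 CPM untreated, and 33.5, 31.5 and 34.3 CPM in WT against 15.5, 26.7 and 24.4 CPM untreated. The groups overlapped in KO and not in WT. The change was 0.952-fold in KO (95% interval 0.745 to 1.22) and 1.48-fold in WT (1.16 to 1.89, adjusted p = 0.1925).

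Ier5 had 41.6, 52.4 and 48.5 CPM after novelty in KO against 44.1, 30.0 and 42.6 CPM untreated, and 41.5, 38.6 and 37.5 CPM in WT against 36.5, 36.1 and 36.2 CPM untreated. The groups overlapped in KO, and in WT the novelty libraries lay just above the untreated ones, at 1.08-fold (95% interval 0.899 to 1.3). Ier2 had 5.85, 4.92 and 5.97 CPM after novelty in KO against 5.79, 3.88 and 7.27 CPM untreated, and 5.53, 4.55 and 4.65 CPM in WT against 3.27, 5.43 and 4.83 CPM untreated. These groups overlapped in both genotypes, and the average change of Ier2 was 1.03-fold (0.82 to 1.29, adjusted p = 0.9493), so a change above 1.29-fold lies outside its interval.

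Counted by libraries that did not overlap, 4 of the 10 genes were higher after novelty in KO (Klf4, Gadd45b, Gadd45g and Arl4d), where 8.6% of tested genes were separated in that direction. In WT 8 of the 10 were separated, all but Klf2 and Ier2, where 8.3% of tested genes were. At an unadjusted p under 0.05, 6 genes were higher in KO (3.7% of tested genes) and 8 in WT (5.63%). By DESeq2, 4 passed in KO (Arl4d, Gadd45b, Gadd45g and Klf4), 5 in WT (the same 4 genes and Npas4) and 7 on average (these 5, Csrnp1 and Klf2). DESeq2 called 0.403% of tested genes higher in KO, 1.09% in WT and 1.95% on average.

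**Figure D3:**
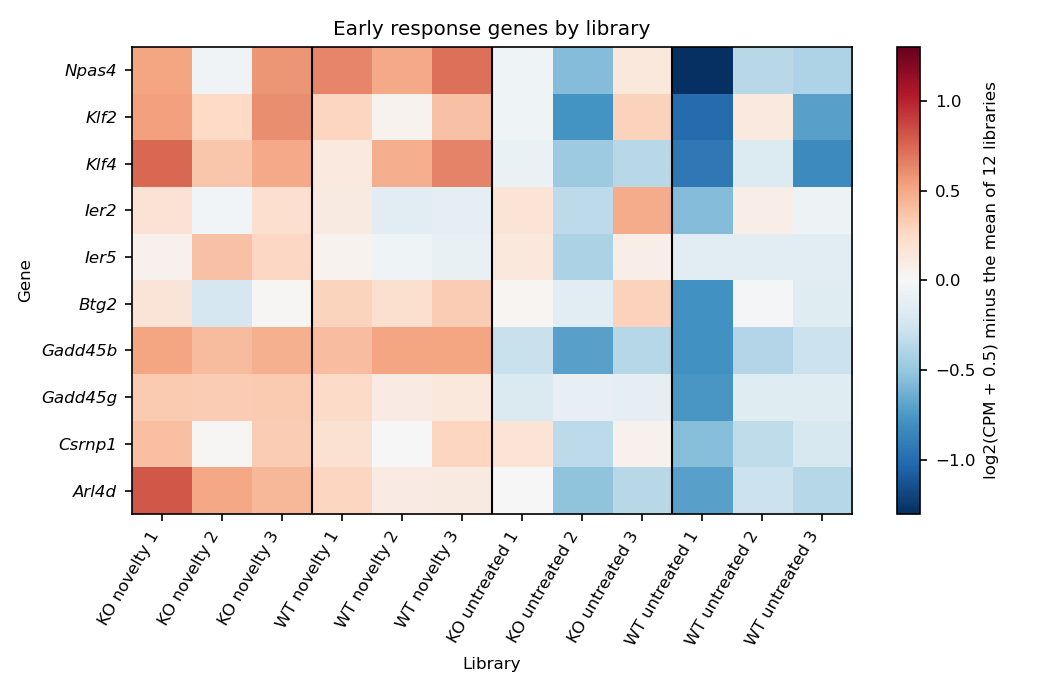
Colour map of each gene's log2(CPM + 0.5) minus its mean over the 12 KO and WT libraries (red above, blue below), with genes in rows and libraries in columns, novelty left of untreated and KO left of WT within each treatment. Untreated WT library 1 is the lowest of its group for 9 of the 10 genes and untreated KO library 2 the lowest of its group for 9.

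Within groups, most of the 10 genes deviated in the same direction in single libraries. These counts and correlations are not set against those of other tested genes, so they do not show a trait particular to the 10. Untreated WT library 1 was the lowest of its group for 9 of them, with a median deviation of -0.34 log2 units, and it is also the shallowest library. Untreated KO library 2 was the lowest of its group for 9 as well (median -0.28), and its summed level of 8 choroid plexus markers was 626 CPM, against 61.2 and 81.1 CPM in the other untreated KO libraries. KO novelty library 2 was the lowest for 8 genes and WT novelty library 2 for 7. Across the 12 libraries, after subtraction of the group means, 43 of the 45 gene pairs correlated positively, with a median r of 0.62, a description over genes that share libraries and depth. Ier5 took part in both negative pairs, with Gadd45g (r = -0.06) and Klf4 (r = -0.04). The part of depth, choroid plexus tissue or GC content in this shared variation was not tested.

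At rest no difference between genotypes was called for any of the 10 genes. In untreated KO against untreated WT, 0 of 10 passed, where 1.09% of tested genes were called higher and 0.159% lower. At an unadjusted p under 0.05, 2 were higher, Csrnp1 (1.28-fold, adjusted p = 0.4952) and Btg2 (1.28-fold, adjusted p = 0.5712), against 5.01% of tested genes, and DESeq2 called 0 (1.67% of tested genes in either direction). All 10 estimates were above 0, as were 50.5% of those of all tested genes, and their median was 0.33. The 10 genes share libraries and covary within groups, so their signs are not independent of each other. Without untreated WT library 1, the lowest of its group for 9 of the 10, Gadd45b stood at -0.11. The other estimates then ran from 0.02 (Gadd45g) to 0.28 (Csrnp1). Untreated libraries of KO and WT overlapped for all 10 genes, whereas 11.6% of tested genes were separated with KO higher. The other immediate early genes described below had a similar sign: 23 of 29 estimates were above 0 with a median of 0.29, edgeR called 0, DESeq2 called 1 (Dusp5) and 11 were higher at an unadjusted p under 0.05.

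Several of these estimates moved by over 1.5 times with single libraries. Npas4 had 27.4, 19.2 and 31.5 CPM in untreated KO against 8.88, 22.1 and 21.5 CPM in untreated WT, a ratio of 1.47 (95% interval 0.988 to 2.19, adjusted p = 0.5976). Its lowest value was in untreated WT library 1, and the log2 difference, 0.56 over all libraries, was 0.27 without that library and 0.74 without untreated WT library 2 or 3. For Klf2, at 0.36, it was 0.16 without untreated WT library 1, 0.23 without WT library 3 and 0.10 without untreated KO library 3, but 0.81 without WT library 2 and 0.60 without KO library 2. Btg2, at 0.36, stood at 0.17 without untreated WT library 1 and at 0.23 without untreated KO library 3. Gadd45b, at 0.02, ran from -0.11 without untreated WT library 1 to 0.13 without WT library 3.

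After novelty, the estimates for KO over WT were positive for 7 genes and negative for 3, and none passed. The adjusted test called 0 of 10, where 1.2% of tested genes were called higher and 0.14% lower, DESeq2 called 0 (1.93% of tested genes in either direction), and 2 were higher at an unadjusted p under 0.05 (5.99% of tested genes). These were Arl4d, at 20.6, 16.5 and 15.8 CPM in KO against 14.1, 12.5 and 12.6 CPM in WT (1.35-fold, 95% interval 1.08 to 1.69, adjusted p = 0.2971), and Ier5, at 41.6, 52.4 and 48.5 CPM in KO against 41.5, 38.6 and 37.5 CPM in WT (1.21-fold, 1.01 to 1.45, adjusted p = 0.5377). For both, the lowest KO library lay above the highest WT library. Gadd45g was separated in the same direction, which makes 3 genes against 6.64% of tested genes, and Btg2 in the other, with KO lower, against 4.56%. For Gadd45b the ratio was 0.992, with an interval of 0.823 to 1.19.

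**Figure D4:**
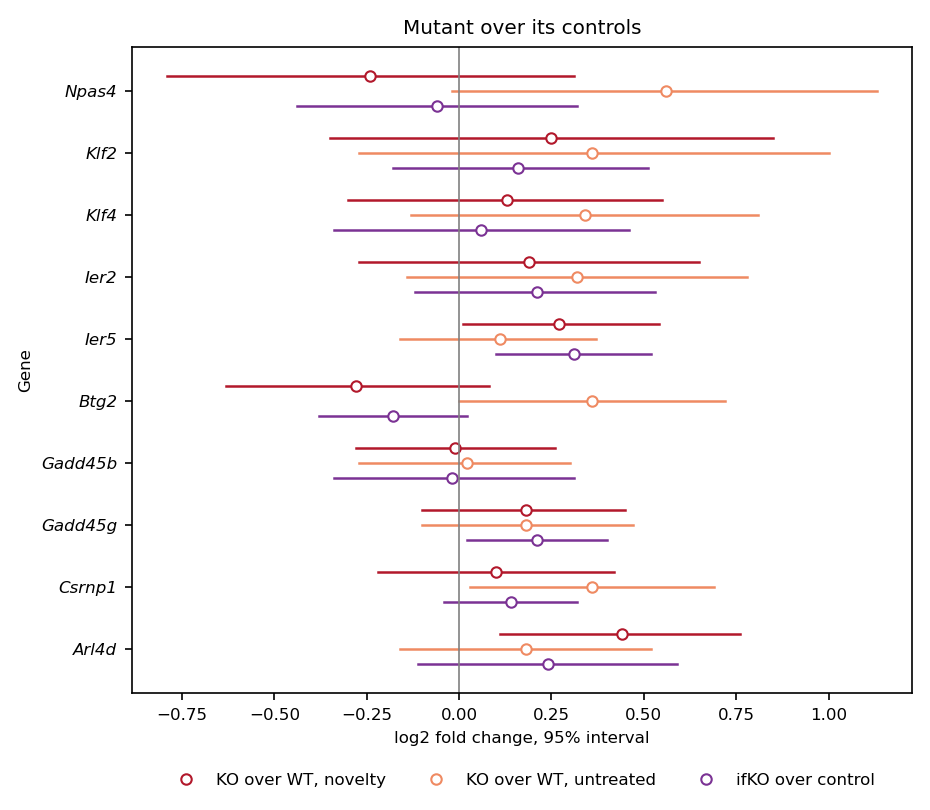
Log2 difference between genotypes for each gene, with 95% confidence intervals, for KO over WT after novelty, KO over WT untreated, and ifKO over control. All 10 estimates are positive for untreated KO over WT, with a median of 0.33, and no estimate in any of the 3 comparisons passed an adjusted p of 0.05. The 10 genes covary within groups, so these signs are not independent.

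Over all libraries, the test of whether the novelty response itself differed between genotypes called 0 of the 10 genes and 0.0% of all tested genes. DESeq2 also called 0 of the 10 and 0.0% of tested genes. Without WT novelty library 1 and KO novelty library 2 together, 29 of 16556 tested genes were called higher and 302 lower, with 0 of the 10 among them. Without a filter, 6 of 28595 tested genes were called higher and 2 lower, again with 0 of the 10. Over all libraries and at an unadjusted p under 0.05, the difference of KO minus WT response was below 0 for 2 of the 10 genes, and for 1.4% of tested genes. Btg2 differed by -0.64 ± 0.23 log2 units (SE, adjusted p = 0.9999), and Npas4 by -0.80 ± 0.37 (adjusted p = 0.9999), a ratio of responses of 0.576 with a 95% interval of 0.331 to 1.0. Without untreated WT library 1, the difference was -0.46 for Btg2 and -0.51 for Npas4. The interval for Gadd45b ran from 0.746-fold to 1.28-fold around a ratio of responses of 0.978, and that for Gadd45g from 0.759-fold to 1.3-fold around 0.995.

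In the forebrain knockout, 0 of the 10 genes passed in ifKO against control, where 0.616% of 17367 tested genes were called higher and 0.0288% lower, and DESeq2 called 0 (0.8% in either direction). At an unadjusted p under 0.05, 2 were higher (4.45% of tested genes). Ier5 had 30.6, 28.3 and 39.2 CPM in ifKO against 27.0, 26.6 and 25.2 CPM in control mice (1.24-fold, 95% interval 1.07 to 1.44, adjusted p = 0.3676). Gadd45g had 7.53, 6.71 and 7.46 CPM in ifKO against 6.14, 6.19 and 6.38 CPM in control mice (1.16-fold, 1.02 to 1.32, adjusted p = 0.6437). For both genes, and for Csrnp1, every ifKO library lay above every control library, where 6.55% of tested genes were separated in that way. Npas4 had 17.4, 12.9 and 9.56 CPM in ifKO against 16.1, 12.2 and 13.5 CPM in control mice, overlapping groups with a ratio of 0.96 (0.74 to 1.25). Levels in these libraries are not set against those of the KO and WT libraries, since background, read type and flow cell all differ.

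Among the close relatives of the 10 genes, 1 was called with novelty by edgeR. Of 12 bHLH-PAS relatives and partners of Npas4, 10 could be tested with the KO and WT libraries, and edgeR called 0 of them in the 3 novelty comparisons, DESeq2 called 0, and 0 had an unadjusted p under 0.05. On average their median log2 change was -0.04, against -0.001 for all tested genes, and Arnt2, the brain-enriched partner of Npas4, stood at 323.0 CPM on average in untreated KO and 319.0 CPM in untreated WT with a log2 change of 0.01 ± 0.05 SE. Of 15 other Krüppel-like factors, 12 were tested and 1 rose on average: Klf15, a glucocorticoid-responsive factor, by 0.37 ± 0.06 log2 units (adjusted p = 0.00881). Klf10 stood at 0.24 ± 0.06 (adjusted p = 0.0905). DESeq2 called Klf10 higher with novelty in WT, and Klf15 in KO and on average. In untreated KO over untreated WT, Klf10 stood at 0.39 ± 0.09 by edgeR (adjusted p = 0.0616), and DESeq2 called it higher. Of 12 paralogs of the other genes, such as Gadd45a (0.09 ± 0.12), Btg1 (0.04 ± 0.07), Csrnp2 (0.03 ± 0.06) and Arl4c (-0.01 ± 0.06), 10 were tested. Of these edgeR and DESeq2 called 0 in the novelty comparisons. At an unadjusted p under 0.05, 1 was higher, Tob2, in KO (0.28 ± 0.13) and on average (0.27 ± 0.09). Of all tested genes, 3.7% were higher by that measure in KO and 7.08% on average.

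**Figure D5:**
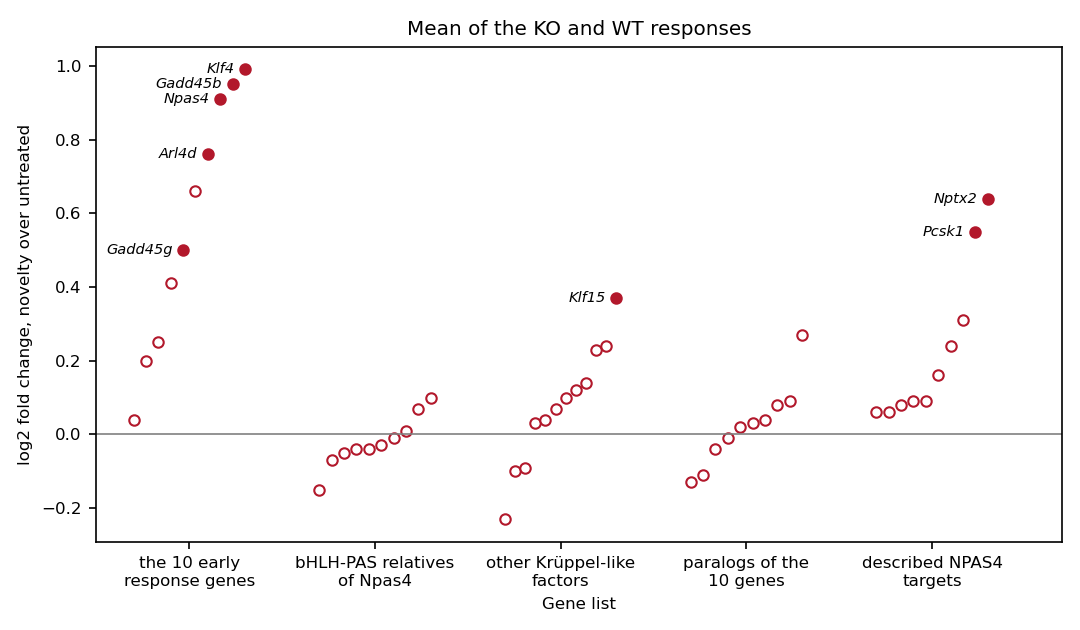
Mean of the KO and WT log2 responses to novelty for each tested gene of 5 lists: the 10 early response genes, bHLH-PAS relatives of Npas4, other Krüppel-like factors, paralogs of the 10 and described NPAS4 targets; filled points passed an adjusted p of 0.05 and are named. The 10 early response genes reach 0.99, the bHLH-PAS relatives stay between -0.15 and 0.10, and Klf15, Nptx2 and Pcsk1 are the filled points of the other 4 lists.

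Other immediate early genes, known for the same activation by neuronal activity, were read from a separate list. Of 29 tested genes of 30 listed, 4 rose in KO (Fosl2, Fosb, Nr4a2 and Maff), 13 rose in WT and 23 rose on average, with median log2 changes of 0.59, 0.84 and 0.73. The AP-1 subunit gene Fosb rose by 1.5 ± 0.23 in KO (adjusted p = 0.0329) and 2.05 ± 0.25 in WT (adjusted p = 0.00487). Genes described as targets of NPAS4 in neurons, a list of 10 written from general knowledge, were all tested. Of these, Nptx2, which codes for a secreted pentraxin at excitatory synapses, rose by 0.51 ± 0.09 in KO (adjusted p = 0.0451) and 0.77 ± 0.09 in WT (adjusted p = 0.00487). Pcsk1, a prohormone convertase gene, rose on average by 0.55 ± 0.10 (adjusted p = 0.0185), and the neurotrophin gene Bdnf stood at 0.31 ± 0.07 (adjusted p = 0.0538). The other 7 of the 10 had average changes between 0.06 and 0.24.

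Because Klf2 and Klf4 are also genes of vessels, markers of other cell types were read beside the results. The labels give hippocampal tissue, while the extraction protocol speaks of cultures, and markers of neurons, glia, vessels, meninges and choroid plexus were all present. No marker was at 0 in any library. The summed level of 10 endothelial markers ran from 255 to 272 CPM in KO and from 229 to 262 CPM in WT after novelty, and from 254 to 305 CPM in KO and from 283 to 287 CPM in WT untreated. Of these 10, 2 had positive average changes, and Cldn5, a tight junction gene, fell by 0.53 log2 units with novelty (adjusted p = 0.0142), opposite in sign to Klf4. Excitatory hippocampal neuron markers, 8 genes, summed to 7290 to 8220 CPM in KO and 7920 to 8510 CPM in WT after novelty, and to 7870 to 8270 CPM in KO and 7450 to 7510 CPM in WT untreated. In WT, 7 of these 8 had positive changes with novelty, with a median of 0.10 and none called. In WT the summed mural markers ran from 213 to 248 CPM after novelty and from 263 to 337 CPM untreated, and oligodendrocyte markers from 3500 to 4010 CPM after novelty and from 4130 to 4580 CPM untreated, without overlap. Between untreated KO and WT, oligodendrocyte markers were separated at 3190 to 3760 CPM in KO and 4130 to 4580 CPM in WT, inhibitory neuron markers at 625 to 694 CPM in KO and 705 to 785 CPM in WT, astrocyte markers at 2560 to 2630 CPM in KO and 2330 to 2420 CPM in WT, and excitatory neuron markers as above, with KO higher. Microglial markers ran from 442 to 477 CPM in KO and from 431 to 434 CPM in WT, and meningeal markers from 134 to 150 CPM in KO and from 152 to 216 CPM in WT. Choroid plexus markers ran from 61.2 to 626 CPM in KO and from 39.5 to 47.5 CPM in WT, also without overlap. The part of these levels in the responses of the 10 genes was not tested.

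The genes with profiles most like that of Npas4 were found by correlating log2 CPM over the 12 KO and WT libraries, as a description over libraries that share treatment and depth. They were Fos (r = 0.97), 1700016P03Rik (0.968), Noxred1 (0.964), Nr4a1 (0.963) and Lat (0.962), of which Noxred1 and Lat averaged 1.1 and 0.905 CPM in untreated WT. The gene span of the transcript 1700016P03Rik, on chromosome 11 from 75172560 to 75177633, holds the miRNA genes Mir212 and Mir132. Within the list, Btg2 (0.91) and Csrnp1 (0.901) were most like Npas4 and Ier5 (0.423) least. The mean profile of the 10 genes was most like those of Arc (0.977), Egr1 (0.972), Junb (0.971), Nr4a1 (0.971) and Fos (0.967).

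The 10 genes also share a compact structure that the list did not use. Their spans ran from 1522 to 13496 bp with a median of 2950 bp, against 25757 bp over the 14464 tested protein-coding genes, and all 10 lay below that median. The longest transcript had 1 exon in Ier2 and Ier5 and 6 in Npas4, with a median of 3.5 exons against 8. Their transcripts had a median GC content of 56.3%, against 49.9%, and 9 of the 10 lay above that.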

How the data were processed

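RNA was measured in 18 libraries of mouse hippocampus (stranded kit, per the labels' protocols). The deposited files hold read counts per Ensembl gene, which the authors made with STAR 2.5.0c and HTSeq 0.6.1 on GRCm38 (mm10), per the submitters' processing notes; the notes and labels name neither the strand setting nor the annotation release. Between 14.7 and 17.2% of each library's entries were assigned to no gene, and these and the other special entries were left out. Of the 24 records, those for the 2 reads of a paired library were taken as 1 library. Symbols, spans and GC content come from GENCODE M21, which matched 46574 of 47069 identifiers, and promoter sequences from RefSeq.

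Genes passing filterByExpr (minimum count 10, total 15) were fitted with edgeR 4.0.16 in R 4.3.3 (TMM, quasi-likelihood test, Benjamini-Hochberg adjustment over all tested genes): the 12 KO and WT libraries with 1 mean per group, and the 6 ifKO and control libraries apart. The 6 comparisons of the 12 libraries share samples and are not independent, and the novelty average is the mean of the KO and WT contrasts. Confidence intervals are 95% and use the fit's own spread. The counts behind the values of the 10 genes lie between 49 and 2016 per library. The fit was tested on simulated data.

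The 10 genes and all lists were chosen with earlier results of these data known. All 10 are named in every comparison. From each other list, up to 3 genes per direction and comparison are named by adjusted p, with the 5 most similar profiles to Npas4 and to the mean of the 10; Arnt2, Maff, Klf10, Bdnf and the paralogs were named after their values were seen. Alternatives were RLE factors, DESeq2 1.42.0, no filter, a stricter filter (1 CPM in 3 libraries), a replicate block, GC and length offsets, a fit of the compared groups alone, and fits without 1 library or without WT novelty library 1 and KO novelty library 2.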

Additional observations from a re-analysis of the deposited data

How the results depend on the processing

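Of 1060 values of single genes under the alternatives, 958 kept their direction and side of the threshold, 32 lost and 29 gained the call, and 41 changed sign, 0 of them called values. The count of the 10 genes called higher with novelty in KO (2) was 4 with DESeq2, 3 without a filter and 1 with the stricter filter, the replicate block or the compared groups alone. Among all tested genes, 18 of 16392 were called higher in KO. That number was 61 with DESeq2, 77 of 28595 without a filter, 16 with the stricter filter, 6 with the block and 10 with the compared groups alone. In WT (2) the count of the 10 genes was 1 with RLE factors, the stricter filter or the block, 5 with DESeq2, 8 without a filter, 7 with GC and length offsets and 0 with the compared groups alone. Among all tested genes, 57 of 16392 were called higher in WT, and 50 with RLE factors, 54 with the stricter filter and 30 with the block. It was 169 with DESeq2, 174 of 28595 without a filter, 440 of 16392 with the offsets and 6 of 15932 with the compared groups alone. Leaving out 1 library gave 0 to 1 of the 10 genes in KO, 0 to 2 in WT and 3 to 6 on average (3 without untreated KO library 1), where it was 5 over all libraries and 7 with DESeq2, without a filter or with the offsets. Among all tested genes, leaving out 1 library gave 1 to 10 in KO, 4 to 85 in WT and 77 to 206 on average. The all-gene number on average was 175 over all libraries, 301 with DESeq2, 268 without a filter and 624 with the offsets. Without a filter, 1 of the 10 genes was called in untreated KO over WT (Npas4) and 1 in ifKO over control (Ier5). Of all tested genes, 266 of 28595 were called higher in untreated KO and 322 of 28667 in ifKO in these fits. The cause of these shifts in calls was not tested.

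Without both WT novelty library 1 and KO novelty library 2, log2 values changed sign to 0.045 (Ier2) and 0.024 (Btg2) for novelty in KO, and to 0.012 (Klf2), 0.04 (Ier2) and 0.051 (Gadd45g) for the difference in response. Leaving out 1 library, the log2 value ran from -0.22 to 0.179 for Ier2 and -0.181 to 0.054 for Btg2 in KO novelty, -0.061 to 0.242 for Ier2 in WT novelty and -0.061 to 0.139 on average; in untreated KO over WT, from -0.109 to 0.134 for Gadd45b and -0.004 to 0.283 for Arl4d; after novelty, from -0.018 to 0.242 for Klf4 and -0.051 to 0.017 for Gadd45b. For the difference in response it ran from -0.569 to 0.152 for Klf2, -0.319 to 0.079 for Ier2, -0.156 to 0.087 for Gadd45b and -0.121 to 0.146 for Gadd45g, and for ifKO over control from -0.307 to 0.124 for Npas4, -0.187 to 0.19 for Klf4 and -0.246 to 0.101 for Gadd45b.

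Whether replicate numbers pair the libraries was not settled, since only same-numbered libraries were compared. Their deviations correlated between -0.28 and 0.39. KO novelty correlated positively with untreated KO (0.06, 0.2 and 0.12) and with WT novelty (0.15, 0.39 and 0.04). The values were negative for untreated KO with untreated WT (-0.08, -0.22 and -0.09) and for ifKO with control (-0.07, -0.05 and -0.14). For WT novelty with untreated WT they were -0.18, -0.28 and 0.04. With 3 pools a group, the spread between pools limits what can be called.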

Other observations

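Some markers of other cell types were called in the comparisons in which the 10 early response genes were read. Among 10 microglial markers 1 was called: Siglech, higher in KO than in WT untreated (log2 difference 0.60 ± 0.10 SE, adjusted p = 0.00737) and after novelty (0.51 ± 0.10, adjusted p = 0.0242). The list did not share this direction: 6 of the 10 estimates were above 0 untreated (median 0.07) and 3 after novelty (median -0.04). At an unadjusted p under 0.05, 2 were higher and 2 lower in untreated KO. The endothelial sialomucin gene Emcn was higher in KO than in WT after novelty (0.79 ± 0.16, adjusted p = 0.02), and the astrocyte connexin gene Gjb6 rose on average with novelty (0.27 ± 0.06, adjusted p = 0.0493). Ogn, a marker of meninges, was lower in untreated KO than in untreated WT (-1.57 ± 0.35, adjusted p = 0.0475) and lower in ifKO than in control mice (-1.29 ± 0.15, adjusted p = 0.001). No gene of the mural, oligodendrocyte, excitatory neuron, inhibitory neuron, choroid plexus or blood lists was called in any of the 7 comparisons by edgeR, whereas DESeq2 called Ttr and Kl (choroid plexus) higher and Mbp (oligodendrocyte) lower in untreated KO than in untreated WT and Pdgfrb (mural) lower with novelty on average. At an unadjusted p under 0.05, 6 of 8 choroid plexus markers were higher in untreated KO (5.01% of tested genes) and 4 were lower with novelty in KO (3.01%), and 5 were lower in ifKO (2.19%). These markers summed to 81.1, 626 and 61.2 CPM in untreated KO libraries 1 to 3, and to 39.5, 47.5 and 43.9 CPM in untreated WT. Untreated KO library 2 stood highest for them, and untreated KO libraries 1 and 3 also lay above every untreated WT library. The part of untreated KO library 2 in the KO counts and in the DESeq2 calls of Ttr and Kl was not tested. Choroid plexus markers summed to 41.3, 53.0 and 80.6 CPM in ifKO and to 400.0, 48.3 and 69.4 CPM in control mice, so control library 1 stood high for them. In that library 7 of the 10 early response genes had their highest value among the control libraries, and the part of this tissue in their levels was not tested.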
